A study of Homo sapiens with 12 samples.

Results

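ATP-binding cassette (ABC) genes were read from a microarray study of drug-treated K562 cells. A probe set (the group of probes that reports 1 transcript) was taken as a member where its annotation named a single gene whose symbol was ABCA to ABCG followed by a number. By this rule 55 probe sets of 35 genes were found among 22215 probe sets that were not controls, of which 19064 named a single gene and together covered 11963 genes. The 35 genes divided into 10 ABCA, 6 ABCB, 8 ABCC, 3 ABCD, 1 ABCE, 3 ABCF and 4 ABCG genes.

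K562 is an established human line from a patient with chronic myeloid leukaemia whose cells depend on the BCR-ABL1 fusion kinase. Total RNA was measured on 12 Affymetrix U133 A 2.0 arrays in 3 groups of 4. One group had 24 h of imatinib (STI571) at 0.5 µM, one had 24 h of nilotinib (AMN107) at 0.05 µM, and the control group had DMSO, the solvent. Both drugs inhibit the ABL kinase. Each dose is described in the labels as the inhibitory concentration of its drug, and the doses differed, so the drugs are compared as dosed and not at a matched concentration. All groups shared the same cell line and growth medium, and a single line stands for the disease in every comparison. Whether arrays of a group came from separate cultures is not stated in the labels, so the p-values below measure the spread between these arrays, which may be technical. RNA came from whole cultures, so fewer cells of a type and less RNA per cell cannot be told apart.

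ABC proteins share a nucleotide-binding domain that hydrolyses ATP. Most families couple it to membrane-spanning domains and carry lipids, sterols, peptides, metabolites or drugs across a membrane, and ABCB1, ABCG2 and several ABCC proteins are known as efflux pumps that lower the drug content of cells. ABCE and ABCF proteins lack the membrane-spanning domains and act on the ribosome and in translation. In leukaemia cells ABCB1 and ABCG2 are the pumps most discussed for imatinib and nilotinib, which they can transport or bind.

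Signals are intensities on the linear scale of the Affymetrix MAS5 algorithm, and each array had the same trimmed mean of 500.1 to 500.2. A probe set was called dim where its mean log2(signal + 16) over all arrays ranked below the 40th percentile, a limit that corresponds to a signal of 80.6. Of the 55 ABC probe sets 25 passed this filter and 30 were dim, a dim share of 54.5% against 38.6% for all probe sets that named a single gene. A gene was read from its passing probe set with the highest mean, which gave 19 ABC genes among 8021 genes tested and left 16 ABC genes with dim probe sets only. Just inside the limit of 6.59 lay ABCA1 and ABCG1 at 6.80 and the second probe set of ABCD4 at 6.67, and just outside it lay one of ABCC9 at 6.53, one of ABCF2 at 6.48 and that of ABCG4 at 6.47. The filter used the mean of all 12 arrays, so a gene raised in 1 group alone could pass through that group. ABCA1 and ABCG1 passed in this way: over the DMSO and imatinib arrays alone their mean lay below the limit. Their nilotinib calls are therefore not independent of the filter, in every count that holds them. The counts below describe the genes that passed and not the family.

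The arrays differed between groups in ways that touch dim genes. The median signal was 119 ± 2.17 (SD, n = 4) with DMSO, 142 ± 8.71 with imatinib and 179 ± 12.1 with nilotinib, and the median of 27 bacterial control probe sets, which report no human RNA, was 7.06 ± 1.31, 12.2 ± 4.54 and 18.2 ± 5.35. The ratio of 3' to 5' actin control probe sets, a measure of RNA integrity, was above 3.5 on imatinib arrays 5 and 6 and nilotinib arrays 1 and 2, at 3.72 to 5.49, and 1.82 to 3.34 on the other 8. All 6 K562 erythroid markers measured by a probe set of their own passed the filter, and their signals summed to 29604 to 33018 on the DMSO arrays, 45306 to 50175 on the imatinib arrays and 52566 to 57089 on the nilotinib arrays. Of markers of other cells, 0 of 5 monocyte and granulocyte and 0 of 4 hepatocyte genes passed, at summed signals of 94.4 to 143, 118 to 162 and 148 to 513 and of 117 to 174, 177 to 301 and 221 to 506 in that order. For lymphocytes 3 of 5 markers passed, at sums of 514 to 631, 255 to 639 and 358 to 815, and for fibroblasts 2 of 5, at 308 to 566, 324 to 622 and 700 to 773. The brightest fibroblast marker was COL1A1, with means of 250, 266 and 329, followed by DCN at 133, 150 and 245, while LUM was near 0 at 0.577, 0.942 and 4.40. Among monocyte and granulocyte genes CSF1R had means of 50.8, 45.3 and 133, MPO 38.2, 24.8 and 78.8, ELANE 8.95, 36.6 and 43.8 and CD14 6.16, 5.70 and 15.5. The part of these differences in the ABC results was not tested, apart from the values given below.

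Promoter windows from RefSeq (GRCh38.p14, from 250 bases before to 50 after a transcript start) were matched by symbol for 16 of the 19 ABC genes, in 24 windows. Those of ABCB6 and ABCA7, which had the largest rises with both drugs, and of ABCE1 and ABCF2, which had the largest falls, are shown 5' to 3' on the gene's strand, with motif matches in capitals.
ABCB6: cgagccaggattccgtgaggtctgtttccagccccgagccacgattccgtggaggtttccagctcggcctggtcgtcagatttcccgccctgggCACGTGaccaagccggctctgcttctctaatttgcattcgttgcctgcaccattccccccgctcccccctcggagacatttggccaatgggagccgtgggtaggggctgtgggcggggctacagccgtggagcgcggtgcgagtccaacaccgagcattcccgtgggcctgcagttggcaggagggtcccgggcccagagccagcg
ABCA7: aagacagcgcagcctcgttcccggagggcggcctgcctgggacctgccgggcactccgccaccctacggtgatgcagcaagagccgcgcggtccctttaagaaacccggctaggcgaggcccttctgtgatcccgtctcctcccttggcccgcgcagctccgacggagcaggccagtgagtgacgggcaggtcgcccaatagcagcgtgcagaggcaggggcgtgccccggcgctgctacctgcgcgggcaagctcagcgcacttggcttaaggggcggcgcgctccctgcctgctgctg
ABCE1: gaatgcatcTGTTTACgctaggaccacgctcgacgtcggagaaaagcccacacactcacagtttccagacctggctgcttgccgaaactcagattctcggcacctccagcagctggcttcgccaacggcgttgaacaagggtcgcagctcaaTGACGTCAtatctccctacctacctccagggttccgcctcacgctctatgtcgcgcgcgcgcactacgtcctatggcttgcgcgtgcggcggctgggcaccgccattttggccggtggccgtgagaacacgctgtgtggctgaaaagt
ABCF2: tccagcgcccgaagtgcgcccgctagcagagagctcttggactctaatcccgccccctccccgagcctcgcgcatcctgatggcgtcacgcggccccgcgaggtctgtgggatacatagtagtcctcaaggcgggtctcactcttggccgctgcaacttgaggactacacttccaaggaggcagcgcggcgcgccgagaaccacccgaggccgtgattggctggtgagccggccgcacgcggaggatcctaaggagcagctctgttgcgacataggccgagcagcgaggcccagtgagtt
These windows lie at chr2:219218909-219219208 on the minus strand (ABCB6), chr19:1039857-1040156 on the plus strand (ABCA7), chr4:145098061-145098360 on the plus strand (ABCE1) and chr7:151227156-151227455 on the minus strand (ABCF2). The letters searched on both strands were the E-box CACGTG, the GATA core AGATAA, the forkhead core GTAAACA, the STAT core TTCNNNGAA, the cyclic AMP response element TGACGTCA and the ATF4 composite core TGATGNAA. The capitals in ABCB6 mark an E-box, and those in ABCE1 mark a forkhead core, read on the opposite strand, and a cyclic AMP response element. The windows of ABCA7 and ABCF2 held none of the 6 sets of letters. Over the 24 ABC windows the E-box letters were found in 7 windows of 6 genes (ABCA1, ABCB6, ABCB9, ABCC10, ABCF1 and ABCG2), a share of 29.2% against 7.26% of all 35116 windows of this length. The forkhead and STAT letters were each found in 2 ABC windows, the cyclic AMP response element and the ATF4 composite in 1 each and the GATA core in 0, against 3.42%, 7.66%, 1.85%, 3.62% and 10.3% of all windows. Several windows of a gene overlap, so 1 match can count more than once, and a match is a run of letters and not a measured binding site. Of the 6 genes with the E-box letters, ABCA1, ABCB6, ABCC10 and ABCG2 were called higher with nilotinib, ABCF1 was called lower and ABCB9 was not called.

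The ABC genes called higher than DMSO were membrane transporters and 1 pseudogene, and those called lower were ribosome-associated proteins. With imatinib 7 of the 19 ABC genes were higher than with DMSO (22.0% of all genes tested were called higher) and 2 were lower (17.3%), in all 9 of 19 against a background of 39.4%. With nilotinib 11 were higher (34.7% of all genes) and 3 lower (23.5%), in all 14 of 19 against 58.2%. The 11 include ABCA1 and ABCG1, which passed the filter through their nilotinib arrays. Calls are from limma with a Benjamini-Hochberg adjusted p under 0.05 over all 8021 genes. The median log2 difference of the ABC genes was 0.38 with imatinib and 0.65 with nilotinib, beside 0.09 and 0.15 over all genes tested. Both drug comparisons use the same 4 DMSO arrays, so they are given side by side and not as 2 independent results.

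The genes were also counted by protein architecture. Of the 14 membrane transporters 6 were higher and 0 lower with imatinib (22.0% and 17.3% of all genes). With nilotinib 10 were higher, ABCA1 and ABCG1 among them, and 0 lower (34.7% and 23.5%). After median centring 3 were higher and 0 lower with imatinib (10.2% and 28.4% of all genes). With nilotinib 4 were then higher and 2 (ABCC4 and ABCD3) lower (10.4% and 49.2%). Of the 4 soluble proteins ABCE1, ABCF1, ABCF2 and ABCF3, 0 were higher and 2 lower with imatinib, and 0 were higher and 3 lower with nilotinib. After median centring 3 of these 4 were lower with each drug, where 28.4% of all genes were lower with imatinib and 49.2% with nilotinib. The remaining gene, the pseudogene ABCA11P, was higher with both, and neither call was kept after quantile normalization, median centring or cyclic loess. Groups of 4 arrays that did not overlap were counted too: with imatinib 7 ABC genes had every array above DMSO (21.5% of all genes did) and 2 every array below (17.6%), and with nilotinib 10 had every array above (29.8%) and 3 every array below (20.9%).

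**Figure D1:**
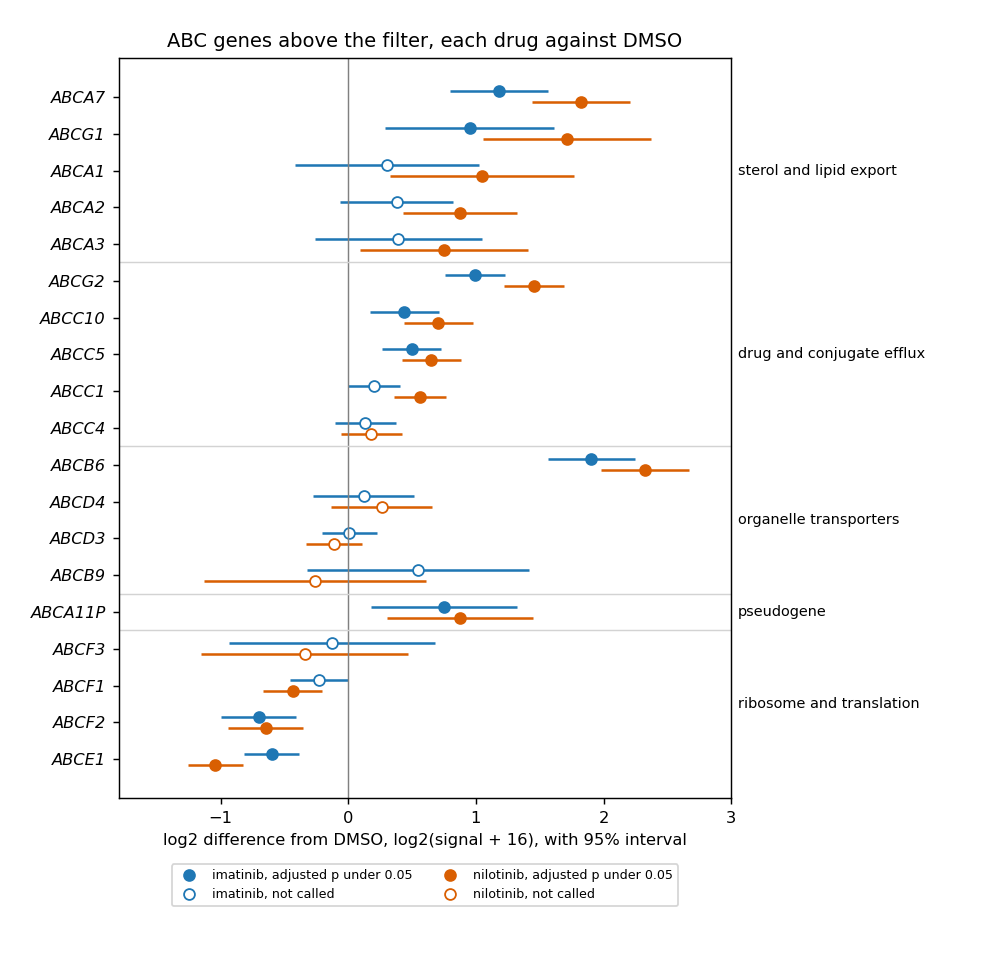
Log2 difference of the 19 ABC genes above the filter from DMSO, with 95% intervals, for imatinib and nilotinib, grouped by role. ABCB6 lies farthest above 0 (1.90 and 2.33), and ABCE1 (-0.60 and -1.04) and ABCF2 (-0.70 and -0.65) lie farthest below it.

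Among drug and conjugate efflux pumps 3 of 5 genes were higher with imatinib (22.0% of all genes) and 4 of 5 with nilotinib (34.7%). After median centring 1 was higher with imatinib (10.2% of all genes), and 1 was higher (10.4%) and 1 lower (49.2%) with nilotinib. ABCG2, the breast cancer resistance protein, gave signals of 516, 371, 512 and 444 with DMSO, 840, 991, 998 and 889 with imatinib and 1316, 1304, 1386 and 1129 with nilotinib. The 3 groups did not overlap, and the order was DMSO, imatinib, nilotinib. The log2 difference from DMSO was 1.00 ± 0.11 (SE; adjusted p = 7.77e-07) with imatinib and 1.45 ± 0.11 (adjusted p = 2.47e-09) with nilotinib, and the 2 drugs differed by 0.46 ± 0.11 (adjusted p = 0.0114). The difference between the drugs was 0.40 and no longer called when the 4 arrays of high actin ratio were left out, and under median centring it was 0.16 and not called.

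ABCC1, the multidrug resistance protein that exports glutathione conjugates, gave 922, 886, 1028 and 992 with DMSO, 983, 1064, 1078 and 1310 with imatinib and 1390, 1573, 1451 and 1268 with nilotinib. Imatinib arrays overlapped those of both other groups, while every nilotinib array lay above every DMSO array. ABCC1 differed from DMSO by 0.20 ± 0.10 (adjusted p = 0.108) with imatinib, a value called higher without the arrays of high actin ratio (0.31, adjusted p = 0.0344) and with the mean of its probe sets (0.25, adjusted p = 0.0494). It differed by 0.56 ± 0.10 (adjusted p = 8.33e-05) with nilotinib and between the drugs by 0.36 ± 0.10 (adjusted p = 0.022). Its second probe set gave 0.76 with nilotinib against DMSO (adjusted p = 0.000688). The call between the drugs was lost without nilotinib array 2 (0.31), imatinib array 5 (0.30) or imatinib array 6 (0.34). It was also lost under median centring (0.059), without a variance trend and without the arrays of high actin ratio (0.19). The second probe set differed between the drugs by 0.47 in limma (adjusted p = 0.0715), which was not called. Under median centring the nilotinib difference from DMSO was 0.038 and not called.

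ABCC5, an exporter of cyclic nucleotides and nucleotide analogues, gave 552, 647, 550 and 673 with DMSO, 828, 806, 867 and 937 with imatinib and 940, 804, 981 and 1127 with nilotinib. ABCC10, a broad-specificity pump of the same subfamily, gave 723, 779, 778 and 673 with DMSO, 1008, 1001, 1024 and 985 with imatinib and 1139, 1487, 1452 and 873 with nilotinib. For both genes every treated array lay above every DMSO array, and the 2 drug groups overlapped. ABCC5 rose by 0.50 ± 0.11 (adjusted p = 0.00132) and 0.65 ± 0.11 (adjusted p = 6.14e-05) with imatinib and nilotinib, and ABCC10 by 0.44 ± 0.13 (adjusted p = 0.0107) and 0.70 ± 0.13 (adjusted p = 0.000135). Under median centring these 4 differences were 0.27, 0.13, 0.21 and 0.18, and none of the 4 was called by limma.

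ABCC4, which exports cyclic nucleotides and nucleotide-like drugs, gave 977, 1162, 1006 and 855 with DMSO, 1182, 1210, 991 and 1003 with imatinib and 1353, 961, 1131 and 1101 with nilotinib. The 3 groups overlapped throughout. The log2 difference was 0.13 with a 95% interval of -0.10 to 0.37 with imatinib and 0.18 with an interval of -0.06 to 0.42 with nilotinib, and neither was called. Median centring turned the nilotinib difference to -0.34 and called it lower.

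**Figure D2:**
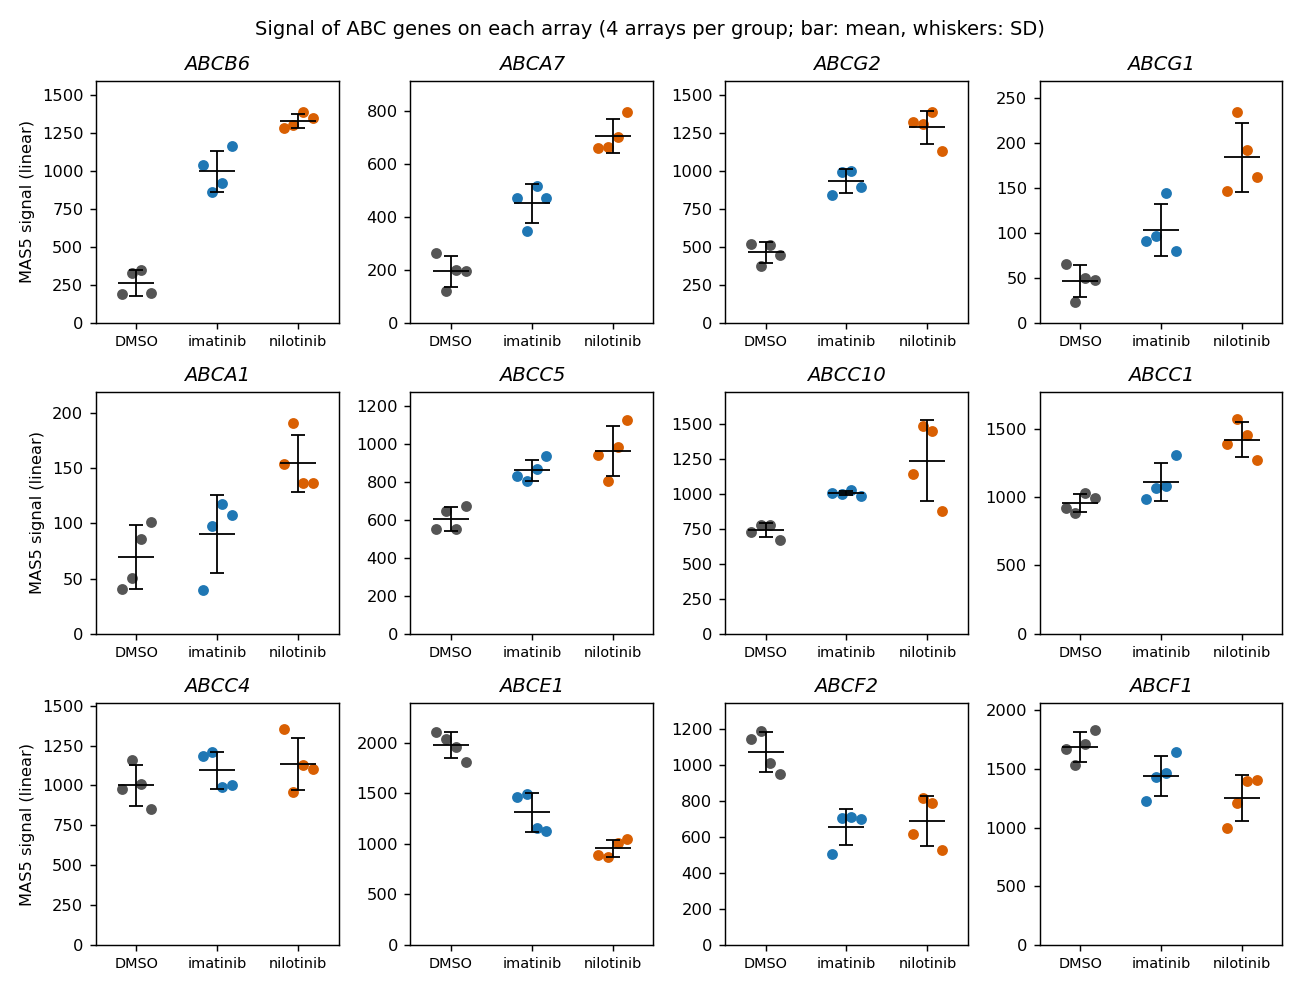
Signal of each array (points, linear MAS5 scale) for 12 ABC genes, with the group mean as a bar line and SD as whiskers, for DMSO, imatinib and nilotinib (n = 4 each). For ABCB6, ABCA7, ABCG1 and ABCG2 the 3 groups are separate and rise from DMSO to imatinib to nilotinib, and for ABCE1 they are separate and descend in that order.

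The pump genes ABCB1, ABCC2 and ABCC3 had dim probe sets only. ABCB1, P-glycoprotein, gave 37.7, 50.6, 61.2 and 42.8 with DMSO, 25.6, 86.9, 10.9 and 70.8 with imatinib and 70.8, 38.0, 47.2 and 84.3 with nilotinib, and the groups overlapped. In a fit of every probe set without a filter its log2 difference was -0.18 (adjusted p = 0.828) with imatinib and 0.22 (adjusted p = 0.693) with nilotinib. ABCC2, an exporter of conjugates at the bile canaliculus in liver, lay between 4.30 and 14.7 for DMSO, between 5.32 and 36.7 for imatinib and between 7.27 and 25.0 for nilotinib, and these ranges overlapped. No difference was called for ABCB1 or ABCC2 at these low signals, which does not show that the genes are silent or unchanged.

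ABCC3, a conjugate exporter of the basolateral membrane, was the dim pump gene whose probe sets were called with nilotinib. Its brighter probe set gave 10.8, 11.4, 11.7 and 10.5 with DMSO, 125, 14.6, 38.0 and 59.2 with imatinib and 194, 42.9, 88.0 and 44.4 with nilotinib. Its other probe set gave 4.44 to 13.2, 13.7 to 102 and 29.0 to 137. On both probe sets every treated array lay above every DMSO array, and the treated arrays spread widely. The log2 difference with nilotinib was 1.79 (adjusted p = 0.00557) and 1.70 (adjusted p = 0.00666), and that with imatinib was 1.25 (adjusted p = 0.0668) and 1.15 (adjusted p = 0.0853). The bacterial controls and the median of all dim probe sets moved in the same order across the groups, and their part in the ABCC3 result was not tested.

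Sterol and lipid exporters were higher in 2 of 5 genes with imatinib (22.0% of all genes) and in 5 of 5 with nilotinib (34.7%). With imatinib 1 of 5 was higher under quantile normalization (18.3% of all genes), cyclic loess or median centring (10.2%). With nilotinib 3 of 5 were higher under quantile normalization (24.7%) or cyclic loess and 2 of 5 under median centring (10.4%). The share of all genes under cyclic loess is not given here. Of the 5, ABCA1 and ABCG1 had DMSO means of 69.5 and 46.5, below the signal of 80.6 at the filter. Both passed the filter through their nilotinib arrays, so the 5 of 5 with nilotinib is in part set by the filter. ABCA7, which moves phospholipids and takes part in phagocytosis, gave 262, 118, 200 and 195 with DMSO, 471, 346, 515 and 468 with imatinib and 657, 663, 699 and 795 with nilotinib. The groups did not overlap and were in the same order as for ABCG2. ABCA7 rose by 1.18 ± 0.18 (adjusted p = 3.67e-05) with imatinib and by 1.82 ± 0.18 (adjusted p = 1.04e-07) with nilotinib, and the drugs differed by 0.64 ± 0.18 (adjusted p = 0.0279). The difference between the drugs was no longer called under 7 of 26 alternatives, among them leaving out imatinib array 6 (0.52) or nilotinib array 4 (0.58) and leaving out the 4 arrays of high actin ratio (0.59).

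ABCG1, which exports cholesterol to lipoproteins, gave 65.6, 22.5, 50.0 and 47.8 with DMSO, 90.9, 96.1, 145 and 79.6 with imatinib and 147, 234, 193 and 163 with nilotinib. No groups overlapped, although the DMSO arrays lay below the signal that marks a probe set as dim. The log2 difference was 0.95 ± 0.31 (adjusted p = 0.0219) with imatinib and 1.71 ± 0.31 (adjusted p = 0.000143) with nilotinib. The imatinib call was lost under quantile normalization, median centring, cyclic loess, without the arrays of high actin ratio, and without imatinib array 7 or DMSO array 10, with values from 0.60 to 1.19 over all alternatives. The nilotinib call held under all 25 alternatives, from 1.11 to 2.04.

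ABCA1, which loads cholesterol onto apolipoproteins, gave 40.7, 50.1, 85.6 and 101 with DMSO, 39.2, 97.7, 118 and 108 with imatinib and 154, 192, 137 and 136 with nilotinib. Only the nilotinib arrays stood clear of the other 2 groups. The log2 difference was 0.30 ± 0.34 (adjusted p = 0.52) with imatinib and 1.05 ± 0.34 (adjusted p = 0.014) with nilotinib, and the second call was lost under the 3 normalizations between arrays, without the arrays of high actin ratio and without DMSO array 9, with values from 0.45 to 1.23.

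ABCA2, a lysosomal transporter linked to cholesterol and sphingolipids, gave 179, 142, 220 and 167 with DMSO, 166, 188, 324 and 286 with imatinib and 301, 416, 294 and 340 with nilotinib. Its nilotinib arrays lay above every DMSO array and overlapped those of imatinib. It rose by 0.88 ± 0.21 (adjusted p = 0.00175) with nilotinib, and the value with imatinib was 0.38 ± 0.21 (adjusted p = 0.171), and leaving out the arrays of high actin ratio made it a call at 0.75 (adjusted p = 0.0114). Under median centring the nilotinib value was 0.35 and not called. ABCA3, which packs surfactant lipids in lung, gave 71.5, 96.6, 146 and 93.5 with DMSO, 171, 113, 149 and 114 with imatinib and 84.1, 282, 177 and 227 with nilotinib. Its groups overlapped, and its nilotinib call (0.75 ± 0.31, adjusted p = 0.0471) was lost under 18 of 25 alternatives, including every array left out other than nilotinib array 1 and DMSO array 11, with values from 0.23 to 1.07.

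Organelle transporters were led by ABCB6, and 1 of 4 genes was higher with each drug (22.0% and 34.7% of all genes). ABCB6, which sits in mitochondrial and endolysosomal membranes and is known for porphyrin transport, gave 187, 327, 345 and 192 with DMSO, 1038, 862, 919 and 1166 with imatinib and 1286, 1305, 1388 and 1348 with nilotinib. The lowest treated array lay far above the highest DMSO array, and all nilotinib arrays lay above all imatinib arrays. The log2 difference was 1.90 ± 0.16 (adjusted p = 1.89e-08) with imatinib and 2.33 ± 0.16 (adjusted p = 6.23e-10) with nilotinib, the largest of the 19 ABC genes in both comparisons. It stayed called under all 26 alternatives, from 1.68 to 2.05 and from 1.80 to 2.47. The drugs differed by 0.42 ± 0.16, with an interval of 0.08 to 0.76 and an adjusted p of 0.0882, which was 0.018 with only the 2 drug groups in the fit.

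The other organelle transporters were not called as deposited. ABCB9, a lysosomal peptide transporter, differed by 0.55 (interval -0.32 to 1.42) with imatinib and by -0.26 (interval -1.13 to 0.61) with nilotinib, and its nilotinib arrays ranged from 21.1 on array 2 to 180 on array 4. With the arrays of high actin ratio left out it gave 0.80 (adjusted p = 0.0372), a call, and 0.64 (adjusted p = 0.0701). ABCD3, which imports long-chain acyl groups into peroxisomes, differed by 0.01 (interval -0.21 to 0.23) and -0.11 (interval -0.33 to 0.11), but after median centring it was called lower with nilotinib, at -0.63 (adjusted p = 0.000161) against DMSO and -0.42 (adjusted p = 0.0133) against imatinib. ABCD4, a lysosomal exporter of vitamin B12, differed by 0.12 (interval -0.27 to 0.52) and 0.26 (interval -0.13 to 0.66).

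Of the 4 ribosome-associated ABC genes 2 fell with imatinib (17.3% of all genes) and 3 with nilotinib (23.5%). ABCE1, the iron-sulfur protein that splits ribosomes after termination, gave 2110, 2035, 1961 and 1809 with DMSO, 1462, 1495, 1154 and 1125 with imatinib and 889, 870, 1009 and 1048 with nilotinib. The 3 groups were separate, with DMSO highest and nilotinib lowest. ABCE1 fell by 0.60 ± 0.10 on the log2 scale (adjusted p = 0.000102) with imatinib and by 1.04 ± 0.10 (adjusted p = 6.92e-08) with nilotinib, and its second probe set fell by 0.75 and 1.03. Nilotinib was below imatinib by -0.44 ± 0.10 (adjusted p = 0.00816), but the drugs differed by -0.74 among the arrays of high actin ratio and by -0.15 among the rest, where the call was lost. On the second probe set the drugs differed by -0.28 in limma (adjusted p = 0.0882), which was not called, and their arrays overlapped. The imatinib values of ABCE1 were 1462 and 1495 on the arrays of high 3' to 5' ratio and 1154 and 1125 on the others. The nilotinib values went the other way, at 889 and 870 on the high arrays and 1009 and 1048 on the others. The part of the ratio in the difference was not tested.

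ABCF2, a cytosolic ABC protein related to the yeast ribosome factor ARB1, gave 1142, 1187, 1012 and 949 with DMSO, 507, 705, 710 and 702 with imatinib and 615, 818, 788 and 526 with nilotinib. Every treated array lay below every DMSO array, and the drug groups overlapped. It fell by 0.70 ± 0.14 (adjusted p = 0.000518) and 0.65 ± 0.14 (adjusted p = 0.000688), and the drugs differed by 0.06 with an interval of -0.24 to 0.35. Its other probe sets above the filter differed between the drugs in limma by -0.18 (adjusted p = 0.568) and -1.12 (adjusted p = 0.0503), and neither was called. On the last of these every nilotinib array lay below every imatinib array. ABCF1, which binds the initiation factor eIF2 and ribosomes, had mean signals of 1687 ± 124, 1442 ± 170 and 1252 ± 195 (SD, n = 4) with DMSO, imatinib and nilotinib. ABCF1 fell by 0.44 ± 0.11 (adjusted p = 0.00229) with nilotinib, and its value with imatinib was -0.23 (adjusted p = 0.108), called lower at -0.45 (adjusted p = 0.00333) after median centring. ABCF3, a relative of the yeast GCN20 protein, differed by -0.13 (interval -0.94 to 0.68) and -0.34 (interval -1.15 to 0.47), and without the arrays of high actin ratio its nilotinib value was -0.98 (adjusted p = 0.0357), called lower.

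The pseudogene ABCA11P, whose transcript is not known to encode a transporter, gave 106, 78.5, 81.0 and 120 with DMSO, 250, 171, 137 and 143 with imatinib and 178, 308, 174 and 129 with nilotinib. Every treated array lay above every DMSO array. It rose by 0.75 ± 0.27 (adjusted p = 0.0354) and 0.88 ± 0.27 (adjusted p = 0.0101), and these calls were lost under 10 and 4 of 25 alternatives, the normalizations between arrays among them. The imatinib call was lost without imatinib array 5 (0.58) or 6 (0.75) and without DMSO array 10 (0.67) or 11 (0.68).

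Imatinib and nilotinib are related compounds, nilotinib having been designed from imatinib, and as dosed they differed in 4 of the 19 ABC genes, against 14.0% of all genes. ABCA7, ABCC1 and ABCG2 were higher with nilotinib (5.82% of all genes were) and ABCE1 was lower (8.22%). Arrays of the 2 drugs did not overlap for 5 genes with nilotinib above (9.50% of all genes) and 1 with nilotinib below (8.54%). ABCB6, ABCA1 and ABCG1 had every nilotinib array above every imatinib array and were not called, with differences of 0.42 (adjusted p = 0.0882), 0.75 (adjusted p = 0.147) and 0.76 (adjusted p = 0.109). For ABCF2 and ABCC4 the intervals were -0.24 to 0.35 and -0.19 to 0.28, and for ABCC5 -0.08 to 0.38. The ABCF2 interval is that of its brightest probe set, and a dimmer one above the filter gave -1.12 (adjusted p = 0.0503 in limma). A p that misses the threshold does not show that the drugs act alike.

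Within the strata of the actin ratio, with 2 arrays of each drug in each, the difference of nilotinib from imatinib was 0.69 and 0.59 for ABCA7, 0.51 and 0.40 for ABCG2, 0.45 and 0.40 for ABCB6 and 0.88 and 0.64 for ABCG1, in the high and the lower stratum. It was 0.52 and 0.19 for ABCC1, 1.24 and 0.25 for ABCA1 and 0.94 and 0.05 for ABCA2. With those 4 arrays left out, 0 of 19 ABC genes differed between the drugs in limma, where 1.35% of all genes were higher and 3.85% lower. Against DMSO, 8 ABC genes were then higher (20.6% of all genes) and 2 lower (17.9%) with imatinib, and 9 were higher (31.7%) and 4 lower (23.2%) with nilotinib.

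Of the 30 dim ABC probe sets 13 were higher with nilotinib. Their median signal per array lay between 11.4 and 12.9 for DMSO, between 14.1 and 24.4 for imatinib and between 29.8 and 51.5 for nilotinib, and these 3 ranges did not overlap. All dim probe sets together had medians of 18.1 to 21.3, 24.3 to 27.6 and 32.4 to 43.8. Fitted one by one without a filter, 1 of the 30 dim ABC probe sets was higher with imatinib (2.67% of all dim probe sets were) and 0 were lower (1.24%), and 13 were higher with nilotinib (24.3%) and 0 lower (1.57%). The median log2 difference of the dim ABC probe sets was 0.23 with imatinib and 0.69 with nilotinib, beside 0.19 and 0.56 for all dim probe sets.

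The dim probe set called with imatinib was that of ABCA6, a lipid transporter homologue, at 1.21 (adjusted p = 0.0238), and it was called with nilotinib at 1.32 (adjusted p = 0.00845). Also called with nilotinib were probe sets of ABCA5, ABCA12, ABCB4, ABCB11 and ABCC8, 2 each of ABCC3 and ABCC9, and dim probe sets of ABCA1, ABCA2 and ABCF2. ABCC9, the sulfonylurea receptor subunit of potassium channels, had the largest of these values, 2.18 (adjusted p = 0.000662). Its signals there were 3.15, 6.72, 39.8 and 2.21 with DMSO and 127, 85.9, 84.7 and 110 with nilotinib. The third ABCC9 probe set gave 0.036 (adjusted p = 0.945) and was not called. Between the drugs the dim probe set of ABCB4 (1.32, adjusted p = 0.0424) and 1 of ABCC9 (1.61, adjusted p = 0.0356) were higher with nilotinib, where 2.14% of all dim probe sets were. The other 2 of ABCC9 gave 0.70 and 0.33 and were not called. Bacterial control probe sets moved in the same order as these dim sets, and the part of background signal in the calls was not tested.

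**Figure D3:**
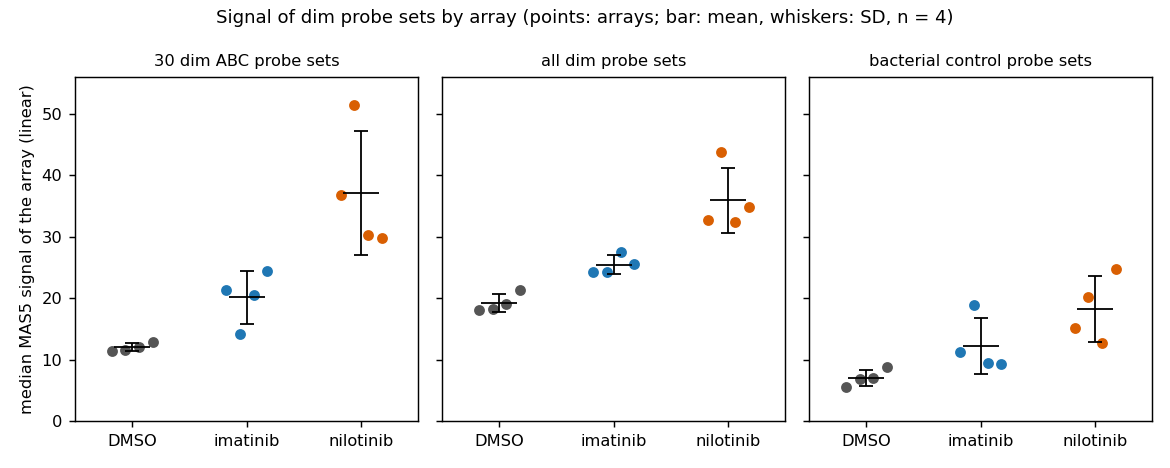
Median signal of dim ABC probe sets (30), all dim probe sets and bacterial control probe sets on each of the 12 arrays, by group, on the linear MAS5 scale. All 3 medians are lowest with DMSO and highest with nilotinib, and the dim ABC median goes from 12.0 to 20.1 to 37.1 on average.

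Probe sets of 1 gene were compared where several passed the filter. Both probe sets of ABCC10 were higher with each drug (0.44 and 0.50 with imatinib, 0.70 and 0.75 with nilotinib), both of ABCE1 were lower, and both of ABCC1 were higher with nilotinib. Both probe sets of ABCD4 were not called with either drug. ABCF2 had 5 probe sets: the 3 above the filter fell with nilotinib by 0.65, 1.00 and 1.09, while with imatinib 2 of them fell by 0.70 and 0.83 and the third gave 0.03. Of its 2 dim probe sets, one gave -0.17 with nilotinib and the other rose by 1.47 (adjusted p = 0.00197), from signals of 2.37 to 5.09 with DMSO to 14.8 to 78.3. That rise started from signals below the median of the bacterial controls and opposed the 3 brighter probe sets.

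**Figure D4:**
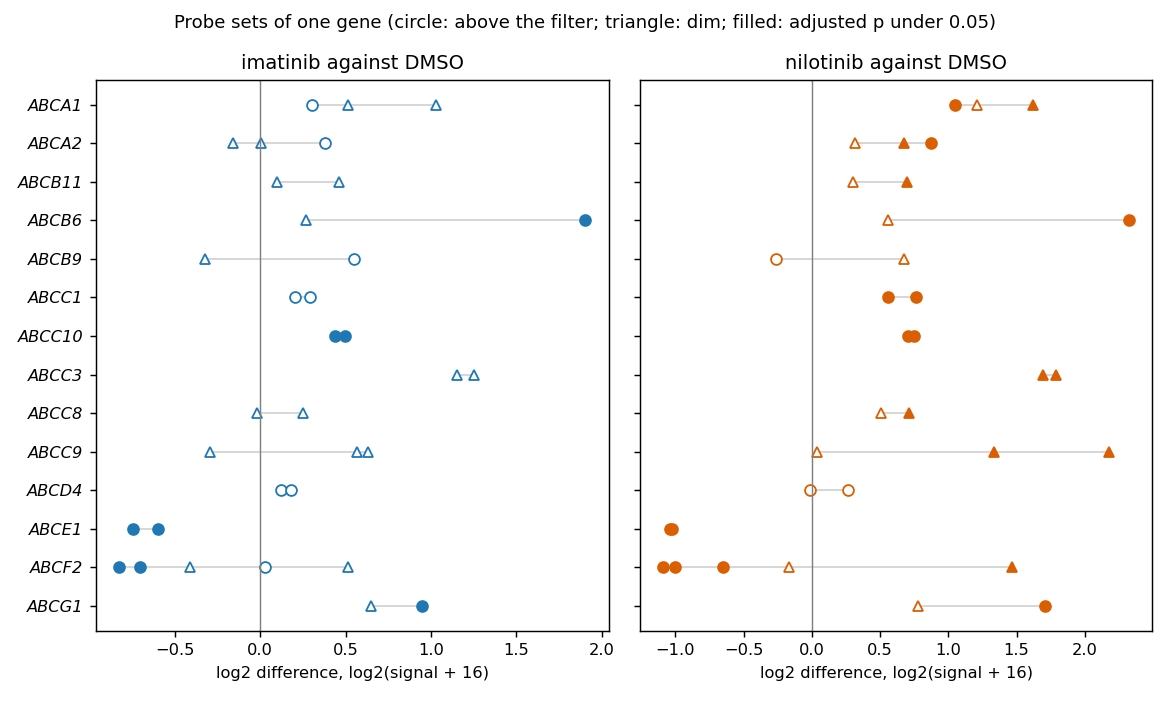
Log2 difference from DMSO of every probe set of ABC genes that have 2 or more, with circles for those above the filter, triangles for dim ones and filled symbols for an adjusted p under 0.05. The circles of ABCC10 and of ABCE1 lie on one side of 0, and 1 triangle of ABCF2 lies at 1.47 with nilotinib, opposite to its circles.

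The counts moved with the scaling between arrays. The median log2 difference over all genes was 0.09 with imatinib and 0.15 with nilotinib as deposited, 0.02 and 0.00 after quantile normalization, and -0.13 and -0.37 after median centring, so a median-centred difference is read relative to that lower level. After quantile normalization 5 ABC genes were higher and 2 lower with imatinib (18.3% and 16.7% of all genes), and 8 were higher and 3 lower with nilotinib (24.7% and 25.9%). After median centring 3 were higher and 3 lower with imatinib (10.2% and 28.4%), and 4 were higher and 5 lower with nilotinib (10.4% and 49.2%). Between the drugs 3 were higher and 1 lower with nilotinib after quantile normalization (4.86% and 7.88%), and 0 were higher and 4 lower after median centring (0.948% and 33.0%). ABCA7, ABCB6, ABCG2, ABCE1 and ABCF2 kept their direction and their call against DMSO with both drugs in each of 26 alternatives (a minimum change was applied to the counts alone), as did ABCF1 with nilotinib.

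**Figure D5:**
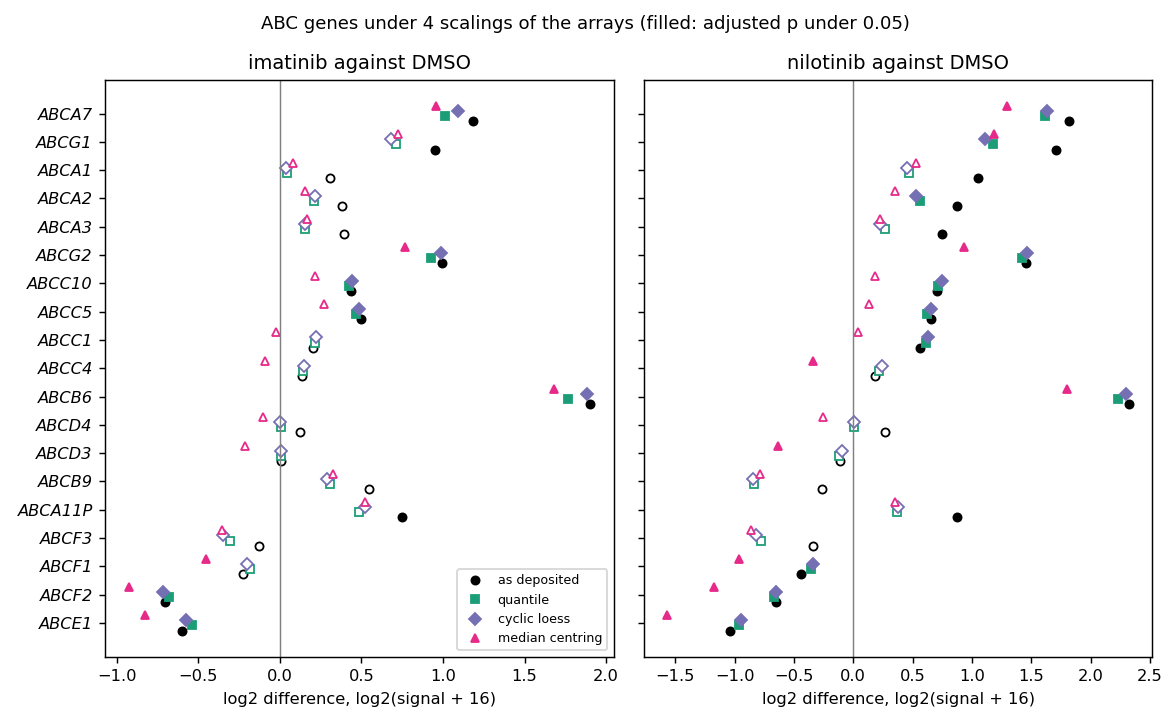
Log2 difference from DMSO of the 19 ABC genes under the deposited scaling, quantile normalization, cyclic loess and median centring, for each drug, with filled symbols for an adjusted p under 0.05. ABCB6, ABCA7 and ABCG2 stay above 0 and ABCE1 and ABCF2 below 0 under all 4 scalings, while ABCC4 with nilotinib goes from 0.18 to -0.34.

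Genes that work beside ABC proteins were read from lists, whose counts stand against 22.0% of all genes higher and 17.3% lower with imatinib and 34.7% higher and 23.5% lower with nilotinib. Median centring, given for each list of 4 or more genes, had 10.2% higher and 28.4% lower with imatinib and 10.4% and 49.2% with nilotinib. ABC genes that carry other symbols, the peptide transporter subunits TAP1 and TAP2, gave 0.45 and 0.35 with imatinib and 0.22 and 0.45 with nilotinib, and 0 of the 2 were called, while CFTR was dim. Of 8 genes of peptide loading, 5 were higher and 0 lower with imatinib and 3 higher and 1 lower with nilotinib (medians 0.34 and 0.08). After median centring 2 were higher and 3 lower with imatinib (median 0.11) and 1 higher and 5 lower with nilotinib (median -0.44). TAPBP (tapasin, which bridges TAP to MHC class I) rose by 1.11 and 1.36, its relative TAPBPL by 0.98 and 1.01 and the trimming peptidase ERAP1 by 0.68 and 0.66. The ERAP1 call with nilotinib was lost after median centring, at 0.14. The TAPBPL calls were lost under the normalizations between arrays, with imatinib array 5 or 7 left out and, for nilotinib, with DMSO array 9 left out, over ranges of 0.70 to 1.13 and 0.46 to 1.48.

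Partners of ABCE1 and the ABCF proteins act in ribosome recycling and in sensing of amino acid shortage. Of 12 such genes 0 were higher and 6 lower with imatinib, and 0 were higher and 8 lower with nilotinib, with medians of -0.32 and -0.48 that stayed below 0 under the 4 scalings. After median centring 9 and 12 were lower. EIF3J, which joins ABCE1 in recycling, fell by 0.90 and 1.15, the release factor ETF1 by 0.76 and 0.83, and EIF2S1, the alpha subunit of eIF2, by 0.48 and 0.90. Of 12 genes of iron-sulfur cluster assembly, the cofactor of ABCE1, 1 was higher and 2 lower with imatinib and 2 higher and 3 lower with nilotinib, with medians near 0 (0.037 and 0.035). After median centring 1 was higher and 4 lower with imatinib (median -0.19) and 0 higher and 8 lower with nilotinib (median -0.49). HSPA9, the mitochondrial chaperone of this pathway, fell by 1.19 and 1.52 and the electron donor FDX1 by 0.74 and 0.84, while the glutaredoxin GLRX5 rose by 0.50 and 0.42, the second turning to -0.10 after median centring.

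Porphyrins and heme are substrates tied to ABCB6 and ABCG2. Of 12 genes of porphyrin and heme handling, 8 were higher and 1 lower with imatinib and 9 were higher and 1 lower with nilotinib, with medians of 0.79 and 0.76. After median centring 7 were higher and 2 lower with imatinib (median 0.56) and 7 higher and 4 lower with nilotinib (median 0.24). ALAD, an early enzyme of heme synthesis, rose by 1.35 and 2.10, PPOX, a late one, by 1.87 and 2.10, and BLVRB, a biliverdin reductase, by 1.86 and 2.04. This list overlaps the erythroid programme that the K562 markers above report, and the 2 were not separated.

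For sterol handling and the LXR receptors that control ABCA1 and ABCG1, 6 of 13 genes were higher and 0 lower with imatinib and 6 were higher and 1 lower with nilotinib, with medians of 0.22 and 0.56. After median centring 6 were higher and 2 lower with imatinib and 5 higher and 4 lower with nilotinib, with medians of -0.0014 and 0.042. APOE, an acceptor of exported cholesterol, rose by 1.16 and 1.38, RXRA, the partner of LXR, by 0.98 and 1.15, and MYLIP, a known LXR target, by 0.86 and 1.06. Of 13 genes of peroxisomes and fatty acid activation around the ABCD transporters, 3 were higher and 2 lower with imatinib and 4 higher and 2 lower with nilotinib (medians 0.11 and 0.053). After median centring 1 was higher and 3 lower with imatinib (median -0.12) and 0 higher and 7 lower with nilotinib (median -0.47). The acyl-CoA synthetases ACSL4 and ACSL1 fell by 1.49 and 1.05 with imatinib and by 1.55 and 1.06 with nilotinib, and EHHADH, an enzyme of peroxisomal oxidation, rose by 0.55 and 0.79. The EHHADH call with imatinib was lost after quantile normalization (0.43), after median centring (0.33) and without the arrays of high actin ratio (0.29), and that with nilotinib after median centring (0.27).

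Carriers and enzymes that set drug exposure moved in both directions. Of 10 uptake carriers 3 were higher and 1 lower with imatinib and 7 were higher and 1 lower with nilotinib, with medians of 0.40 and 0.87. With nilotinib 4 were higher and 2 lower after quantile normalization (median 0.43), and after median centring 3 were higher and 1 lower with imatinib (median 0.18) and 3 higher and 2 lower with nilotinib (median 0.35). SLC22A4, an organic cation and ergothioneine carrier, rose by 2.00 and 2.65 and SLCO1A2, an organic anion carrier, by 1.00 and 1.26, while SLCO4C1, another organic anion carrier, fell by 1.36 and 1.56. Of 10 xenobiotic receptors and drug-metabolising enzymes 5 were higher and 2 lower with imatinib and 5 higher and 3 lower with nilotinib (medians 0.56 and 0.78). The nilotinib median was 0.30 after quantile normalization, and after median centring 3 were higher and 2 lower with imatinib (median 0.34) and 3 higher and 4 lower with nilotinib (median 0.26). The cytochrome CYP3A5 rose by 3.58 and 4.40 and CYP1A1 by 2.04 and 2.30, while AHR, the receptor known to induce CYP1A1, fell by 3.06 with imatinib and fell by 3.19 with nilotinib.

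Of 15 genes of glutathione conjugation and metabolism, which include enzymes that supply substrates of ABCC pumps, 7 were higher and 3 lower with imatinib. With nilotinib 7 were higher and 4 lower, and the medians were 0.31 and 0.13. After median centring 4 were higher and 3 lower with imatinib (median 0.082) and 4 higher and 8 lower with nilotinib (median -0.39). The glutathione transferases GSTM2, GSTM3 and GSTT1 rose by 1.01, 1.13 and 0.90 with imatinib and by 1.17, 1.11 and 1.15 with nilotinib. Among 4 membrane anchors of transporters 2 were higher and 1 lower with each drug (medians 0.086 and 0.059). After median centring 0 were higher and 1 lower with imatinib (median -0.14) and 0 higher and 2 lower with nilotinib (median -0.46). Moesin (MSN) fell by 0.46 and 0.50, and ezrin (EZR) and radixin (RDX) rose by 0.20 and 0.24 with imatinib and by 0.33 and 0.28 with nilotinib; these rises went to -0.027, 0.016, -0.19 and -0.24 after median centring. With the mean of the probe sets the calls of EZR and RDX were lost with both drugs. The imatinib call of EZR was also lost without a variance trend and without imatinib array 8 or DMSO array 11. That of RDX was also lost without the arrays of high actin ratio and without imatinib array 5 or DMSO array 12. Of the 2 pore genes of channels that contain ABCC8 or ABCC9, 1 had a probe set of its own, which did not pass the filter.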

How the data were processed

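RNA of K562 cells on 12 arrays (4 arrays each for DMSO, imatinib and nilotinib, grouped by title) was measured with Affymetrix U133 A 2.0 chips. The deposited values are linear intensity signals that the authors computed with MAS5, per the submitters' processing notes; the version is not given in the sources used here. MAS5 scales each array by 1 factor and corrects a local background. Background differences between arrays may remain in dim probe sets, which was not tested. Values were used as deposited, as log2(signal + 16), and 0 columns were left unmapped.

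Of 22277 probe sets 62 controls were left out, and 19064 of the rest named 1 gene, 1043 several and 2108 none. Symbols came from the platform annotation, updated by gene identifier. Genes were filtered at the 40th percentile of the mean, with the brightest probe set kept for each gene, and limma 3.58.1 (R 4.3.3) was fitted to 8021 genes (1 mean per group, variance trend, 9 residual degrees of freedom before moderation), with Benjamini-Hochberg adjustment in each of 3 comparisons and calls at 0.05. Tables and figures were made with Python 3.11.15 and matplotlib 3.10.9. The fit was tested on simulated data with known changes. Precision is limited by the number of arrays.

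The members, the gene lists and the alternatives were chosen with earlier results of these data known. Signals of every array were given for the brightest probe set of the efflux pumps ABCB1, ABCC1, ABCC3, ABCC4, ABCC5 and ABCG2. For ABCC2 and the other ABCC3 probe set ranges were given instead. Signals of every array were also given for up to 10 further genes with the largest difference among those called. Of each list up to 3 called genes with the largest difference were named. ABCA11P fell under the symbol rule and is a pseudogene. One gene that the symbol rule would take is not reported here. Alternatives changed the pseudocount (1 or 64), the filter (none, or the 60th percentile), the scaling between arrays (3 normalizations), the treatment of several probe sets, the variance model with or without array weights, the groups fitted and the minimum change, or left out the arrays of high actin ratio or each array in turn.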

Additional observations from a re-analysis of the deposited data

Results flagged for a closer look

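ABCF2 on imatinib array 5 gave a signal of 507, while the other 3 imatinib arrays gave 702 to 710, so that array stood apart from its group by more than Dixon's limit for 4 values. It was 1 of 57 groups of member genes examined, and chance alone flags about 1 group in 20. Array 5 is also one of the 4 arrays of high actin ratio, and the part of that ratio was not tested.

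A probe set whose annotation names both ABCB8 and ASIC3 was kept out of the comparisons because it names 2 genes. Its signal was 54.9 ± 18.4 (SD, n = 4) with DMSO, 161 ± 51.7 with imatinib and 213 ± 36.7 with nilotinib, with ranges of 40.1 to 81.6, 89.0 to 204 and 171 to 256. Every treated array lay above every DMSO array, and which of the 2 genes the signal reports was not tested. The other probe set of 2 names, ABCB4 and ABCB1, was dim, at 23.6 ± 16.4, 23.8 ± 13.3 and 40.4 ± 26.2.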

How the results depend on the processing

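No paired analysis was possible because the arrays are numbered 1 to 12 across the groups, which share no replicate number. Of 3014 values of single genes under an alternative, 2872 kept their direction and their side of the threshold, 89 lost the call, 12 gained one and 41 changed sign. The alternatives for genes of the pathway lists were chosen after seeing the data.

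A minimum log2 change was applied to counts and not to single genes. Requiring a log2 change of at least 1 left 2 ABC genes with imatinib (2 higher, 0 lower), 6 with nilotinib (5 higher, 1 lower) and 0 between the drugs. Median centring left 3 higher with imatinib, 9 in all (4 higher, 5 lower) with nilotinib, and 0 higher and 4 lower between the drugs. Testing every probe set gave 4 of 55 ABC probe sets lower with imatinib (9.15% of all probe sets). With nilotinib 31 were called (41.8%), 25 of them higher (28.4%) and 6 lower (13.4%). The 60th percentile filter left 7 of 13 genes higher with nilotinib. Between the drugs, no variance trend left 2 called (1 higher), no filter gave 5 higher, and leaving out the arrays of high actin ratio left 0 called, 0 higher and 0 lower. Leaving out 1 array in turn gave 2 to 4 called ABC genes between the drugs, 1 to 3 of them higher; without imatinib replicate 6 they were 2 and 1. It gave 7 to 9 called with imatinib and 12 to 14 with nilotinib. Shares of all genes are not given for the minimum change, the other filters, the variance model or single arrays left out. Those counts are read without a background.

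Under median centring these log2 differences changed sign: with imatinib ABCC1 -0.022, ABCC4 -0.092, ABCD3 -0.22, ABCD4 -0.10 and EZR -0.027; with nilotinib ABCC4 -0.34, ABCD4 -0.26, GLRX5 -0.10, EZR -0.19 and RDX -0.24; and between the drugs ABCA11P -0.17, ABCC10 -0.032, ABCC4 -0.25, ABCC5 -0.14, ABCD4 -0.15 and ABCF2 -0.24. Between the drugs ABCA11P was -0.11 under quantile normalization and -0.14 under cyclic loess, which also gave ABCD4 -0.0019 with imatinib. The mean of the probe sets gave EZR -0.11 with nilotinib, and ABCD4 -0.027 and ABCF2 -0.41 between the drugs. Array weights gave ABCD3 -0.0054 with imatinib. Without the arrays of high actin ratio ABCD3 was -0.094 and ABCF3 0.086 with imatinib, ABCB9 was 0.64 with nilotinib, and between the drugs ABCD4 was -0.040 and ABCF2 -0.13.

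Leaving out 1 array in turn also changed signs. With imatinib ABCD3 ranged from -0.073 to 0.063 and ABCF3 from -0.29 to 0.18. With nilotinib ABCB9 ranged from -0.61 to 0.19 and ABCF3 from -0.58 to 0.13. Between the drugs ABCA11P ranged from -0.094 to 0.30, ABCC4 from -0.039 to 0.12, ABCD4 from -0.00024 to 0.25, ABCF2 from -0.061 to 0.17 and ABCF3 from -0.52 to 0.25. Calls were gained by 12 values of single genes. Against DMSO these were ABCA2, ABCB9 and ABCC1 with imatinib and ABCF3 with nilotinib without the arrays of high actin ratio, ABCC1 with imatinib for the mean of the probe sets, and under median centring ABCF1 with imatinib (-0.45) and ABCD3 with nilotinib (-0.63). Between the drugs they were ABCB6 with only these 2 groups fitted (0.42), ABCC10 without nilotinib replicate 4 (0.42, adjusted p = 0.0181) and, under median centring, ABCB9 (-1.11), ABCD3 (-0.42) and ABCF1 (-0.51). The ABC genes that changed sign were not called in the setting reported, and the cause of each change was not tested.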
